A study of Rattus with 6 samples.

Results

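Ldha, Pgk1, Pdk3 and Sdha are the genes of sugar breakdown and mitochondrial energy supply that carried a named mRNA probe on an array built for circular RNA (circRNA). They were picked by gene and probe name, as 4 of the 38 genes that the array's mRNA probes could be matched to, and were read by 5 probes, 2 of them for Ldha. The tissue was heart muscle of 6 male Sprague-Dawley (SD) rats, 1 array per rat. In the ischemia-reperfusion group (n = 3) the left anterior descending coronary artery, LAD in the labels, was ligated for 40 min, and hearts were taken after 2 h of reperfusion. In the control group (n = 3) a thread was placed at the same position without being tied, and the same 2 h followed. Groups were taken from the sample titles and treatment labels, since the source label reads ischemia-reperfusion for all 6 rats, controls included. The age of the rats and the part of the heart that was sampled are not given in the sources used here. Of 29 marker genes for heart muscle cells and the other cell types of the heart, 0 had a named probe, so the cell make-up of the samples was not analysed here.

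In heart muscle most ATP normally comes from the mitochondria, and glycolysis takes a larger part when oxygen is short. Pgk1 encodes phosphoglycerate kinase, one of the ATP-forming steps of glycolysis, and Ldha encodes the lactate dehydrogenase subunit that favours the conversion of pyruvate to lactate. Pdk3 encodes a kinase that switches off pyruvate dehydrogenase, the gate from glycolysis into the mitochondria, and Sdha encodes the flavoprotein subunit of succinate dehydrogenase, an enzyme shared by the TCA cycle and the respiratory chain. Ldha, Pgk1 and some kinases of the Pdk family are known targets of hypoxia-inducible factor, and succinate is known to build up in ischemic heart and to be oxidized by succinate dehydrogenase on reperfusion. Pgk1, Sdha and Ldha are also used as reference genes in expression studies. The 4 genes thus stand on both sides of the step at which pyruvate enters the mitochondria.

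None of the 4 genes differed between the groups past an adjusted p of 0.05, nor did any of the 13008 probes tested. On the scaled log2 scale all 5 probes of these genes had a lower mean after ischemia-reperfusion. So did 76.7% of the 43 mRNA probes tested and 62.2% of all probes. For these genes the direction was not kept relative to every other mRNA or control probe. The log2 differences, ischemia-reperfusion minus control, were -0.33 and -0.66 at the 2 Ldha probes, -0.41 for Pgk1, -0.41 for Pdk3 and -0.56 for Sdha, which corresponds to 79.7%, 63.4%, 75.1%, 75.4% and 67.7% of the control mean. No ratio between 2 of these probes within an array differed between the groups beyond the spread between animals. Fewer cells that contain an mRNA and less of it per cell cannot be told apart in such bulk samples. A step that removes linear RNA is common ahead of circRNA arrays, and whether one was used here is not given, so signals at mRNA probes may differ from the tissue's mRNA levels.

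Each of the 5 probes was spotted 10 times on each array. All 300 spots were well above background by the software's call, 0 were saturated, and 9 were flagged as outliers and left out. All 5 probes were therefore detected on all 6 arrays, and none entered the test through 1 group alone. Values are given below as processed intensity, which the scanner software corrected for background, and as scaled log2 signal, which is log2 intensity minus the 75th percentile over that array's circRNA probes. That percentile was between 64.4 and 102 intensity units, lowest on ischemia-reperfusion array 2. The negative control spots, 73 to 77 per array after outliers were dropped, had median intensities of 1.02 to 1.14. The 10 adenoviral E1A control probes have no rat target. Their median intensities were 10.9, 7.68 and 9.28 in the ischemia-reperfusion rats and 23.0, 12.7 and 9.24 in the control rats, in replicate order. Whether RNA matching them had been added to the samples was not checked here, so their signal need not all be unspecific. On the scaled log2 scale these probes were also lower on average after ischemia-reperfusion, with a difference of -0.56. The groups were only just separate, with a highest ischemia-reperfusion value of -2.97 and a lowest control value of -2.94. Once control array 1 was left out the difference was -0.28. With all arrays the two-sided exact permutation p was 0.1, below which 3 against 3 cannot go. The slide held its arrays in rows, and the upper one held all ischemia-reperfusion arrays with control array 1, the lower one control arrays 2 and 3.

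Ldha was read by a bright probe, A_44_P210461, and a dim one, CUST_6_PI421900130, called probe A and probe B here, both assigned by the array to transcript NM_017025. Probe A gave intensities of 1359, 692 and 1777 in ischemia-reperfusion rats 1, 2 and 3, and of 1475, 2106 and 1148 in control rats 1, 2 and 3. The ranges overlapped widely, with the lowest value on ischemia-reperfusion array 2 and the highest on control array 2. On the scaled log2 scale its mean was 3.85 ± 0.37 with and 4.17 ± 0.32 without ischemia-reperfusion (SD, n = 3 per group), which differ by -0.33 (SE 0.25, 95% interval -0.90 to 0.24, limma adjusted p = 0.534). The difference was within the spread between animals, and it lay between -0.46 and -0.12 when 1 array was left out. The spots of 1 array agreed within an SD of 0.029 to 0.057 log2 units, so the spread of probe A lay between animals or arrays and not between spots.

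Probe B of Ldha read 17.9, 9.07 and 37.8 intensity units in the ischemia-reperfusion rats, in the same order, and 40.9, 28.5 and 22.3 in the controls. Ischemia-reperfusion array 3 lay inside the control range, whereas arrays 1 and 2 lay below it. The scaled log2 level was -2.17 ± 0.70 against -1.52 ± 0.26 for the controls (SD, n = 3 per group), which differ by -0.66 (SE 0.34, 95% interval -1.43 to 0.12, limma adjusted p = 0.431). Leaving out ischemia-reperfusion replicate 3 moved it to -1.03 and leaving out ischemia-reperfusion replicate 2 to -0.33, so that single rats set its size. Probe B was 1.18 to 4.07 times as bright as the E1A probes of its own array, lowest on ischemia-reperfusion array 2. Probe A was 64.0 to 191 times as bright, lowest on control array 1. Relative to the E1A probes of the same array, probe B had a log2 difference of -0.09 and probe A one of 0.24 (two-sided exact permutation p = 0.9 and 0.6), and the part of unspecific signal in the result of probe B was not tested.

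The 2 Ldha probes tracked each other loosely over the 6 arrays. On the scaled log2 scale Pearson's r was 0.65 (exact permutation p = 0.203) and Spearman's rho 0.37 (exact permutation p = 0.497). Without ischemia-reperfusion array 2 and control array 2, the arrays farthest from the median of probe A, r was 0.090. Leaving out the extremes of probe A tends to lower r by itself, so whether the relation rested on those arrays cannot be told. Without scaling r was 0.84 and rho 0.71 (exact permutation p = 0.0750 and 0.136), and r was 0.68 without the same arrays. Relative to circRNA probes of like brightness r was 0.71 and rho 0.60 (exact permutation p = 0.178 and 0.242). On that scale the farthest arrays were ischemia-reperfusion array 2 and control array 3, and r was 0.43 without them. After Benjamini-Hochberg adjustment over the 3 scales the lowest exact permutation p was 0.203 for r and 0.363 for rho. The positions of both probes along the transcript, and whether they also bind close relatives such as Ldhb, were not analysed here.

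Pgk1 was read by probe CUST_2_PI421900130, for transcript NM_053291.3. Its intensities were 17.9, 14.0 and 27.7 in ischemia-reperfusion rats 1, 2 and 3 against 28.8, 29.6 and 20.8 in the controls. In intensity units the groups overlapped, since ischemia-reperfusion array 3 exceeded control array 3. After scaling they did not, as was seen, with lower values, for 18.6% of the 43 mRNA probes tested. The scaled log2 levels were -2.25, -2.21 and -1.89 against -1.72, -1.61 and -1.77, with means of -2.11 ± 0.20 and -1.70 ± 0.08 (SD, n = 3 each). The difference of -0.41 (SE 0.17, 95% interval -0.81 to -0.01) did not pass (limma adjusted p = 0.427). It ranged from -0.53 to -0.35 when 1 array was left out. The signal was 1.25 to 2.99 times that of the E1A probes of the same array, lowest on control array 1, and relative to them the log2 difference was 0.15 (two-sided exact permutation p = 0.7).

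Pdk3 was read by probe A_44_P443343, for transcript NM_001106581. It lay close to the E1A probes in brightness, though above the median of the negative control spots on every array. Its intensities were 12.3, 8.70 and 15.2 with ischemia-reperfusion against 16.7, 17.1 and 14.4 without. They overlapped through ischemia-reperfusion array 3 and control array 3. After scaling the groups were separate and tight, at -2.80, -2.89 and -2.75 against -2.51, -2.41 and -2.30, with means of -2.81 ± 0.07 and -2.41 ± 0.11 (SD, n = 3 each). Lower values without overlap were seen for 18.6% of the 43 mRNA probes tested. The difference of -0.41 (SE 0.16, 95% interval -0.77 to -0.04) did not pass (limma adjusted p = 0.427). Spots of 1 array differed by an SD of 0.11 to 0.21 log2 units, with the highest median of the 5 probes, and the mean of 10 spots reduces this error. Pdk3 was 0.723 to 1.64 times as bright as the E1A probes, and on control array 1 it was below them. Relative to them the log2 difference was 0.16 (two-sided exact permutation p = 0.8), opposite in sign to that on the scaled log2 scale. Relative to circRNA probes of like brightness, a scale on which signals as dim as these are compared with each other, the difference was -0.22 (SE 0.23, limma adjusted p = 0.629) and the groups overlapped. How much of the signal came from Pdk3 mRNA was not tested.

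Sdha was read by probe CUST_12_PI421900130, for transcript NM_130428.1. Its intensities were 96.9, 78.7 and 142 with ischemia-reperfusion against 129, 203 and 143 in the control rats. On the scaled log2 scale these were 0.18, 0.29 and 0.47 against 0.45, 1.17 and 1.02. Control arrays 2 and 3 lay well above all ischemia-reperfusion arrays, and control array 1 lay just below the highest of them. The means were 0.31 ± 0.14 and 0.88 ± 0.38 (SD, n = 3 per group), which differ by -0.56 (SE 0.22, 95% interval -1.08 to -0.05, limma adjusted p = 0.427). The probe was 5.61 to 16.0 times as bright as the E1A probes. Relative to them the log2 difference over all arrays was -0.0005 (two-sided exact permutation p = 1). The log2 values were 3.151, 3.357 and 3.931 with ischemia-reperfusion against 2.488, 3.998 and 3.955 in the control rats. Control array 1, where the E1A probes were brightest, was lowest, and control arrays 2 and 3 lay above every ischemia-reperfusion array. The small size of the difference on that scale therefore leaned on 1 control rat. Over the 5 energy gene probes, 2 had a negative difference relative to the E1A probes and 0 were lower without overlap, against 16.3% and 0% of the 43 mRNA probes tested. Relative to circRNA probes of like brightness the difference was -0.51 (SE 0.19, limma adjusted p = 0.326), and on that scale the groups did not overlap. Sdha was the only one of the 5 probes separate there, against 8 of 43 mRNA probes (18.6%), and all 5 had a negative difference, against 26 of 43 (60.5%).

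The Sdha difference varied with the position of the controls. With slide row as a block, which compares the ischemia-reperfusion arrays with control array 1 of the same row, it was -0.13 (SE 0.21, limma adjusted p = 0.843). Without control replicate 1, where group and row cannot be told apart, it was -0.78 (SE 0.17, limma adjusted p = 0.0872). In the same row comparison Ldha probes A and B had -0.11 and -0.96, Pgk1 had -0.39 and Pdk3 -0.30. Within the row, Pgk1 and Pdk3 thus kept most of the size seen on all arrays, Ldha probe B gained and Sdha and Ldha probe A lost. That comparison rests on 1 control rat.

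**Figure D1:**
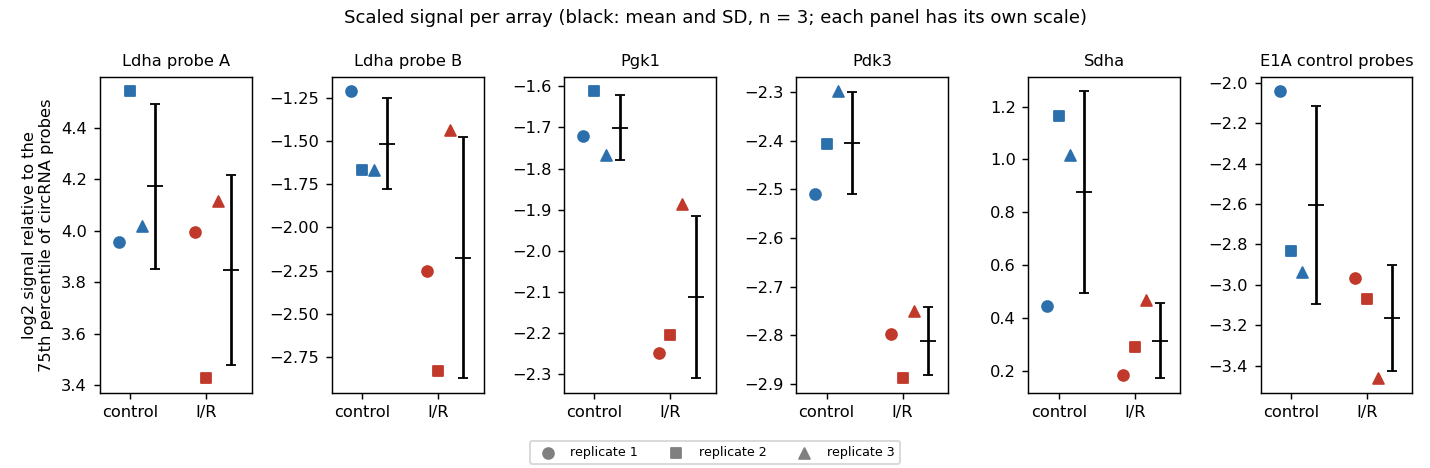
Scaled log2 signal (log2 intensity minus the 75th percentile over circRNA probes) of each array for the 5 probes and for the E1A control probes, in control and ischemia-reperfusion (I/R) rats, with the mean and SD (n = 3) in black. Pgk1 and Pdk3 do not overlap between groups, as is seen, with lower values, for 18.6% of the 43 mRNA probes tested. The Ldha probes overlap, and in Sdha 1 control array reaches 0.45 against 0.47 for the highest ischemia-reperfusion array.

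The 4 genes were next set against all probes of the array tested in the same fit. Of 13008 probes, 0 passed an adjusted p of 0.05 in limma (a share of 0%), while 1492 (11.5%) had an unadjusted limma p under 0.05, with the lower value after ischemia-reperfusion in 985 (7.57%). Among the 43 mRNA probes tested, 9 (20.9%) had an unadjusted limma p under 0.05, all of them lower after ischemia-reperfusion. Pgk1, Pdk3 and Sdha were among these, and neither Ldha probe was. The other genes of the pathways could not be followed by name. Of 28 genes on the glycolysis and hypoxia list, only Ldha and Pgk1 had a named probe. Pdk3 was the only one of 13 for pyruvate dehydrogenase and its regulators, and Sdha the only one of 17 for the TCA cycle. Of 23 respiratory chain and mitochondrial energy genes, 0 had a named probe. Only 39 of the 62 mRNA probes could be named, and whether the rest include other genes of these lists was not checked.

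Lower values were common among the mRNA probes as a whole. Of the 43 tested, 33 (76.7%) had a negative difference, with a median of -0.25, and the median of the 5 energy gene probes was -0.41. Among all 13008 probes, 8094 (62.2%) had a negative difference. Groups that did not overlap, with lower values after ischemia-reperfusion, were seen for 8 of the 43 mRNA probes (18.6%) and for 2 of the 5 energy gene probes, Pgk1 and Pdk3. Over all probes these shares were 11.3% lower and 5.93% higher without overlap. Counted from the most negative difference, Ldha probe B ranked 4 of 43 and Sdha 7, followed by Pgk1 at 14, Pdk3 at 15 and Ldha probe A at 19. With p-values adjusted over the mRNA probes alone, the limma adjusted p was 0.189 for Pgk1, Pdk3 and Sdha, 0.274 for Ldha probe B and 0.382 for probe A. In that fit 1 of the 43 (2.33%) passed, Map2, a microtubule-associated protein.

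**Figure D2:**
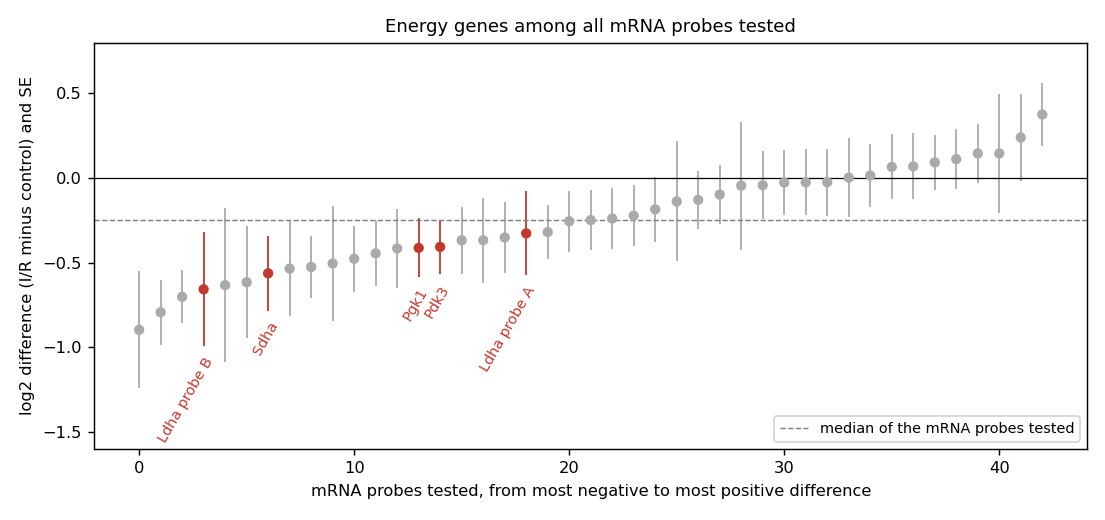
The log2 difference (ischemia-reperfusion minus control) with its SE for the 43 mRNA probes tested, ordered from the most negative, with the 5 energy gene probes in red and the median of -0.25 as a dashed line. All 5 lie on the negative side, with Ldha probe B and Sdha closest to the negative end and Ldha probe A nearest the median.

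The size of each difference depended on what it was measured against. The median of all 13008 probes was -0.11 with scaling to the 75th percentile, -0.01 with quantile normalization and 0.10 when the arrays were scaled to the mean of the 34 other mRNA probes detected on all 6 arrays. Relative to those other mRNA probes, the differences were -0.12 and -0.45 for Ldha probes A and B, -0.21 for Pgk1, -0.20 for Pdk3 and -0.36 for Sdha, with limma adjusted p between 0.519 and 0.847. With quantile normalization they were -0.18 and -0.57 for Ldha, -0.29 for Pgk1, -0.15 for Pdk3 and -0.53 for Sdha. Sdha and Ldha probe B therefore kept most of their size with quantile normalization, and Pdk3 did not. Without any scaling the differences were -0.36, -0.69, -0.45, -0.44 and -0.60 for Ldha probe A, Ldha probe B, Pgk1, Pdk3 and Sdha, and 0 of the 5 probes separated the groups, against 3 of 43 mRNA probes (6.98%) that were lower without overlap on that scale.

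Array quality weights were the only planned setting in which any of the 5 probes passed, and there 4 did. The differences were then -0.57 for Ldha probe A, -0.52 for Pgk1, -0.40 for Pdk3 and -0.86 for Sdha (limma adjusted p = 0.0466, 0.0190, 0.0263 and 0.00978, against ranges over the 28 alternatives that reach 0.982 in each). These weights put 3406 of all 13008 probes (26.2%) past the threshold. They gave control array 2 a weight of 6.14 and control array 1 one of 0.207, so that the control group was mostly represented by a single rat. Among the mRNA probes alone, 1 of the 5 passed with array quality weights (Sdha), 1 without control replicate 1 (Sdha) and 1 without ischemia-reperfusion replicate 3 (Ldha probe B), against 9.3%, 11.6% and 11.6% of the 43 tested.

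**Figure D3:**
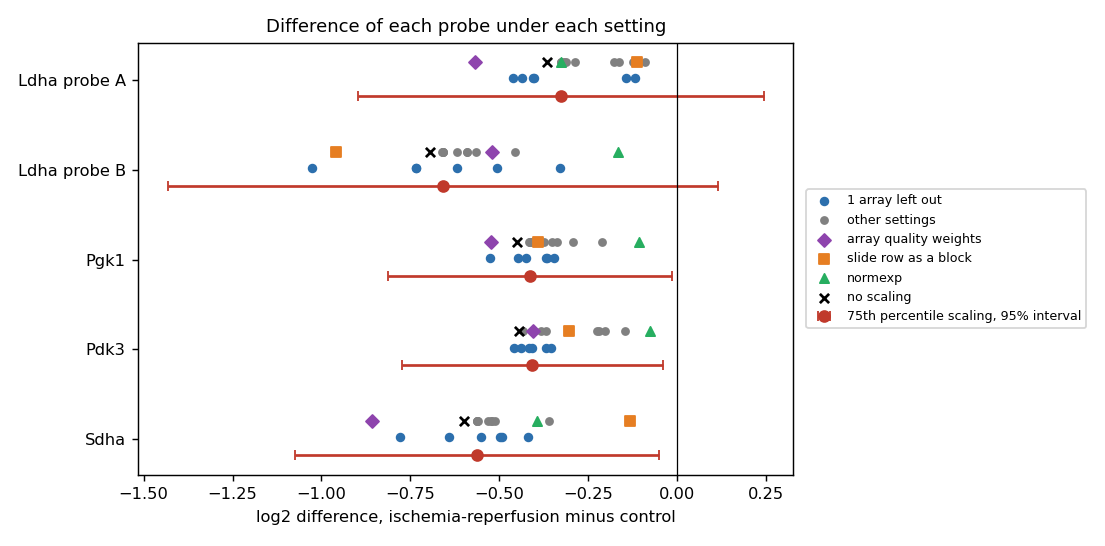
The log2 difference (ischemia-reperfusion minus control) of each of the 5 probes, with its 95% interval under 75th percentile scaling (red), with 1 array left out (blue) and under the other settings. Every point lies below 0 (ratios to E1A and to single mRNAs are not plotted), and the values run from -0.57 to -0.09 for Ldha probe A, -1.03 to -0.17 for Ldha probe B, -0.53 to -0.11 for Pgk1, -0.46 to -0.07 for Pdk3 and -0.86 to -0.13 for Sdha.

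Ratios between 2 probes on the same array do not depend on the scaling between arrays, and they ask whether the energy genes changed by unequal amounts. In none of the 10 ratios among the 5 probes were the groups separate, and no difference exceeded its SE. The two-sided exact permutation p was between 0.4 and 1 (smallest possible 0.1), and 1 for all after Benjamini-Hochberg adjustment over the 10. A ratio of this kind cannot show that either partner was unchanged.

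The smallest difference was that between Pgk1 and Pdk3. The log2 ratio of Pgk1 to Pdk3 was 0.55, 0.68 and 0.87 with ischemia-reperfusion (replicates 1, 2 and 3) against 0.79, 0.79 and 0.53 in controls. The groups covered much the same range, and the difference was -0.006 (SE 0.13). Pgk1 to Sdha, glycolysis against the TCA cycle, was -2.43, -2.49 and -2.35 after ischemia-reperfusion and -2.17, -2.78 and -2.79 in controls, a difference of 0.15 (SE 0.21, two-sided exact permutation p = 0.4). The ischemia-reperfusion values lay between control array 1 and control arrays 2 and 3, with an SD of 0.07 against 0.36 in controls. Pdk3 to Sdha, the brake on pyruvate entry against an enzyme of the mitochondrion, differed by 0.16 (SE 0.19, two-sided exact permutation p = 0.5).

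The ratios with Ldha varied more. Ldha probe A to Sdha was 3.81, 3.14 and 3.65 after ischemia-reperfusion and 3.51, 3.38 and 3.00 in controls, a difference of 0.24 (SE 0.25, two-sided exact permutation p = 0.4), with ischemia-reperfusion arrays 1 and 3 above all controls and array 2 among them. Ldha probe A to Pgk1 differed by 0.09 (SE 0.23) and to Pdk3 by 0.08 (SE 0.26). With probe B the directions were the opposite, at -0.24 (SE 0.35) to Pgk1, -0.25 (SE 0.42) to Pdk3 and -0.09 (SE 0.51) to Sdha. The ratio of Ldha probe A to probe B was itself 6.25, 6.25 and 5.56 after ischemia-reperfusion and 5.17, 6.21 and 5.69 in controls, a difference of 0.33 (SE 0.38, two-sided exact permutation p = 0.5). This was the widest of the 10 differences, and it lay between readings of 1 gene.

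**Figure D4:**
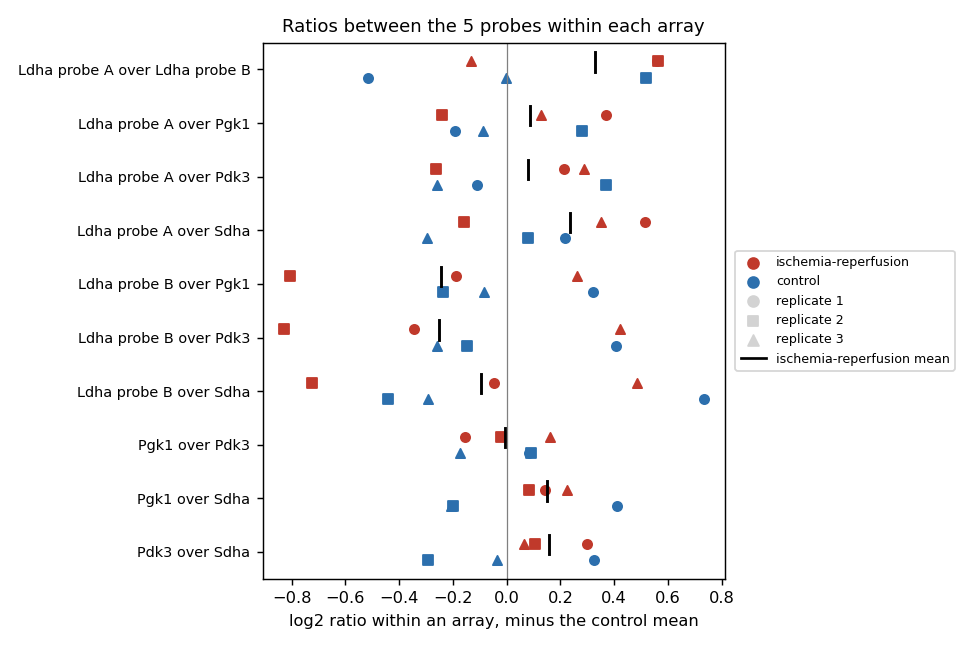
Log2 ratio between 2 of the 5 probes on each array, minus the control mean of that ratio, with ischemia-reperfusion arrays in red, controls in blue and the ischemia-reperfusion mean as a black bar. The groups overlap in all 10 ratios, and the means lie between -0.25 and 0.33.

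Reference mRNAs on the same arrays gave another internal scale, and the direction of the energy genes depended on which was taken. All 7 other named custom mRNA probes of the array were used, after their values were known. Their own scaled log2 differences ran from 0.38 for Actb (cytoplasmic actin), 0.07 for B2m (the light chain of MHC class I) and -0.04 for Hprt1 (a purine salvage enzyme) through -0.26 for Rpl13a (a ribosomal protein), -0.37 for Hsp90ab1 (a chaperone) and -0.54 for Rplp1 (a ribosomal stalk protein) to -0.90 for Gusb (a lysosomal enzyme, detected on 5 of the 6 arrays). The more negative the difference of the reference, the less negative were the ratios to it, which the arithmetic of a ratio fixes.

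Relative to Actb the log2 differences of the 5 energy gene probes ran from -1.03 to -0.70, all negative and all with separate groups. Of the 42 mRNA probes tested besides Actb, the 5 included, 100% had a negative difference to it and 61.9% were lower without overlap. Actb had the most positive difference of all 43 mRNA probes tested, which fixes these signs. Relative to B2m the 5 ran from -0.72 to -0.39 with 3 separate, against 83.3% negative and 31% lower without overlap among the mRNA probes. Relative to Hprt1 they ran from -0.62 to -0.28 with 2 separate, against 69% negative and 16.7% lower without overlap.

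With the references that were themselves lower, the groups overlapped for all 5 energy gene probes. To Rpl13a the log2 differences ran from -0.40 to -0.07, against 47.6% of mRNA probes negative and 2.38% lower without overlap. To Hsp90ab1 they ran from -0.29 to 0.04 with 4 negative, against 35.7% negative and 4.76% lower without overlap. To Rplp1 they ran from -0.12 to 0.21 with 2 negative, against 16.7% negative and 0% lower without overlap. To Gusb they ran from 0.24 to 0.57 with 0 negative, against 0% negative and 0% lower without overlap. Gusb had the most negative difference of all mRNA probes tested, which fixes these signs. Among the 35 ratios the two-sided exact permutation p was 0.1, the smallest possible, for each separate one, and 0.35 after Benjamini-Hochberg adjustment.

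The values of Pgk1 and Sdha show how the scale decides the picture. The log2 ratio of Pgk1 to Actb was -1.96, -2.45 and -1.91 with ischemia-reperfusion against -1.26, -1.32 and -1.38 without, a difference of -0.79 (SE 0.17). To Hprt1 Pgk1 differed by -0.37 (SE 0.12), to Hsp90ab1 by -0.05 (SE 0.20) and to Gusb by 0.48 (SE 0.48). Sdha to Hprt1 was 3.72, 3.78 and 3.70 against 3.97, 4.21 and 4.57, a difference of -0.52 (SE 0.17). Sdha to B2m was -1.81, -1.63 and -1.73 against -1.81, -0.73 and -0.75, where control array 1 lay among the ischemia-reperfusion arrays. To Hsp90ab1 Sdha differed by -0.20 (SE 0.08), and to Rplp1 by -0.03 (SE 0.30).

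**Figure D5:**
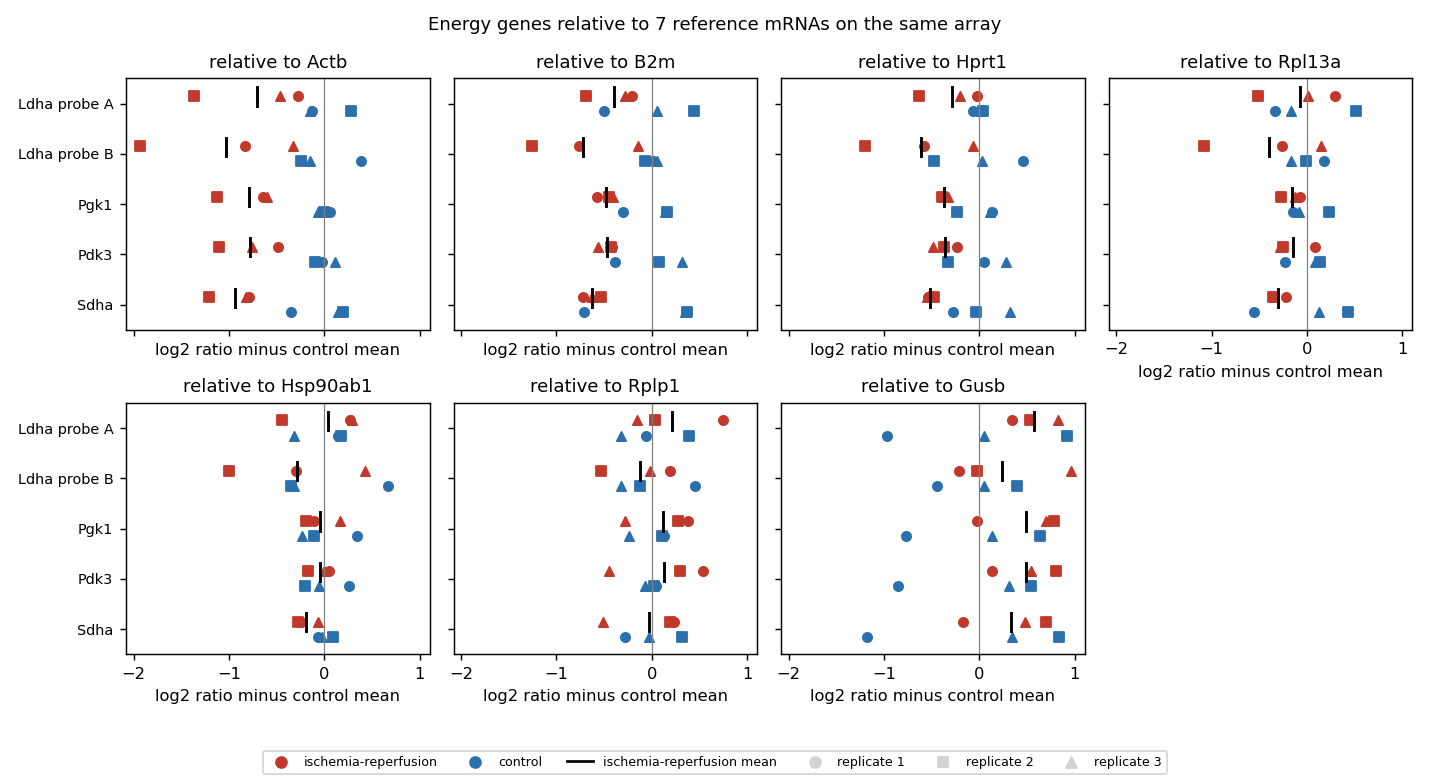
Log2 ratio of each energy gene probe to each of 7 reference mRNAs on the same array, minus the control mean of that ratio, with ischemia-reperfusion arrays in red, controls in blue and the ischemia-reperfusion mean as a black bar. The panels run from the reference with the most positive difference of its own (Actb, 0.38) to the most negative (Gusb, -0.90), and the means of the energy genes move from below 0 to above it.

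The mRNAs whose scaled log2 values ran most like each energy gene over the 6 arrays were taken from 24 other named probes detected on all arrays, as a description. For Sdha these were Hsp90ab1, a chaperone (r = 0.97), and Cyp2e1, a cytochrome P450 (r = 0.95). For Pdk3 they were Pop7, a subunit of ribonuclease P (r = 0.97), and Cyp2e1 (r = 0.96), and for Pgk1 they were Pop7 and Map2 (r = 0.88 for both). Ldha probe B ran most like Slc28a2, a nucleoside transporter (r = 0.85), and Pgk1 (r = 0.81), and Ldha probe A like Hprt1 (r = 0.71) and Pgk1 (r = 0.70). Pgk1 was thus near both Ldha probes. These values share the 6 arrays, their scaling and the 2 groups.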

How the data were processed

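The deposited scanner output gives linear spot intensity from a 1-colour protocol, background-subtracted within each array by Feature Extraction (Agilent, 11.0.1.1), per the file headers. RNA was extracted with Trizol and labelled with Cy3 from random primers, per the labels' protocols. The header names rn4, so no coordinates are given, and probe sequences were not used here. Accessions of 39 of 62 mRNA probes matched the RefSeq gene table of assembly GRCr8, used for names alone. All 6 tables share 1 scan identifier.

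Outlier-flagged spots were dropped, log2 processed intensities of repeat spots were averaged, and each array's 75th percentile over 14145 circRNA probes was subtracted. An mRNA probe was detected when over 50% of its spots were well above background. Probes detected on all 3 arrays of a group were fitted together in limma 3.58.1 (lmFit and eBayes, two-sided, R 4.3.3), with Benjamini-Hochberg adjustment over all 13008 probes, and adjustment over the 43 mRNA probes alone as an alternative. The threshold was an adjusted p of 0.05. The script was tested on simulated data. Exact permutation tests used scipy 1.17.1, and figures matplotlib 3.10.9. Precision is limited by 3 arrays per group.

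The genes, lists and settings were chosen with earlier results of these data known. Text names the 5 probes, listed pathway genes, the 2 most alike named mRNAs of each and the 7 other named custom mRNA probes, used as references. Replicate numbers 1 to 3 come from the titles. Deviations from group means correlated between same-numbered arrays at r = 0.60, 0.29 and 0.19 over circRNA probes. Between differently numbered arrays r ran from -0.45 to 0.21. The main fit did not pair the arrays, and pairing by number, called the replicate block, was an alternative. With the replicate block no call on the 5 probes changed. Alternatives covered the scaling, background correction, spots, filter, weights, blocks and single arrays.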

Additional observations from a re-analysis of the deposited data

How the results depend on the processing

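All 5 log2 differences stayed negative under the 28 alternatives fitted in limma. Not all of these are separate estimates. Those that change only the filter, the error or the adjustment, such as the replicate block or mRNA probes alone, repeat another estimate. Their sign was therefore fixed. Relative to the E1A probes, a scale added after seeing the data, 3 turned positive (0.24 for Ldha probe A, 0.15 for Pgk1, 0.16 for Pdk3). Those of Ldha probe B and Sdha were -0.09 and -0.0005. On that scale control array 1, where the E1A probes were brightest, had the lowest control value for each of the 5 probes. These differences therefore lean on 1 control rat, and values without it are not given here. The number of the 5 that passed was 0, as reported, in 24 of the limma alternatives. Array quality weights let 4 pass (-0.57 for Ldha probe A, -0.52 for Pgk1, -0.40 for Pdk3, -0.86 for Sdha). A further 3 combinations added after seeing the data each let 1 pass, where 4, 5 and 5 of the 43 mRNA probes did: mRNA probes alone with array quality weights (Sdha, -0.70), without control replicate 1 (Sdha, -0.78) and without ischemia-reperfusion replicate 3 (Ldha probe B, -1.03). Leaving out single arrays, the values ran from -0.46 to -0.12 for Ldha probe A, -1.03 to -0.33 for Ldha probe B, -0.53 to -0.35 for Pgk1, -0.46 to -0.35 for Pdk3 and -0.78 to -0.42 for Sdha, and the number that passed was 0 in the fit over all probes and 0 to 1 among mRNA probes alone. With the replicate block the differences were the same and none passed (limma adjusted p of 0.147 for Sdha to 0.444 for Ldha probe A). In all, 4 within-array ratios turned round with normexp, whose offset of 50 intensity units shrinks dim probes by construction: Ldha probe A to probe B (-0.16), to Pgk1 (-0.22) and to Pdk3 (-0.25), and Ldha probe B to Sdha (0.23). Pgk1 to Pdk3 was 0.026 with outlier spots kept. With 1 array left out, the ratios that changed sign ranged from -0.057 to 0.25 (Ldha probe A to Pgk1), -0.050 to 0.27 (Ldha probe A to Pdk3), -0.50 to 0.037 (Ldha probe B to Pgk1), -0.59 to 0.039 (Ldha probe B to Pdk3), -0.39 to 0.27 (Ldha probe B to Sdha) and -0.092 to 0.070 (Pgk1 to Pdk3). The cause of these changes was otherwise not tested. Low brightness limits Pdk3, Pgk1 and Ldha probe B, and the part of unspecific signal in them was not tested.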
